A study of Mus musculus with 6 samples.

Results

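The Ube2 genes encode the ubiquitin-conjugating enzymes, or E2 enzymes, and were read here in C57BL/6 mice, in peritoneal macrophages, which are phagocytes taken from the abdominal cavity. RNA was sequenced from 3 libraries of macrophages given R-2-HG at 0.1 mM and from 3 libraries of macrophages given vehicle, all for 24 h, and the libraries are named here by group and replicate number. R-2-HG is R-2-hydroxyglutarate, the metabolite that mutant isocitrate dehydrogenases make. The family was taken by name, as every entry of the expression table whose gene name begins with Ube2, without the 3 names that carry the pseudogene mark -ps, and this left 40 members of 34745 genes. By the GENCODE annotation 37 of the 40 are protein coding, 2 are processed pseudogenes (Ube2nl and Ube2d4) and 1 is an antisense RNA (Ube2uos). Ube2cbp shares the name but encodes a protein that binds an E2 and is not one itself. The family was chosen because of the values of Ube2l3 in these libraries. They were high in R-2-HG libraries 2 and 3 and not in R-2-HG library 1. The values of Ube2l3 are therefore given as a description. Ube2l3 was among all genes put to the test below, but no p-value is given for it. The question was whether any other member shows the same uneven rise.

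Ubiquitin is a small protein that cells attach to other proteins to mark them for destruction or to change what they do. An E1 enzyme activates ubiquitin, an E2 enzyme carries it on a cysteine, and an E3 ligase brings the loaded E2 to the target. A few E2 enzymes carry related modifiers instead, NEDD8 or ISG15 for example. In macrophages the pathway is known for its part in signalling from Toll-like and cytokine receptors, where ubiquitin chains assemble the kinases that activate NF-kappaB, and for ISG15 attachment after interferon.

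Values are FPKM, a measure that divides the sequenced fragments of a gene by transcript length and by the depth of the library, so levels of different genes can be set side by side. The depth, estimated from the steps between low values, was between 13470000 and 16310000 fragments per library, and 1 fragment of a 2 kb transcript was worth between 0.0307 and 0.0371 FPKM. Macrophage markers (Lyz2, Adgre1, Cd68, Csf1r and Itgam) summed to between 18739 and 25520 FPKM in R-2-HG libraries, against sums between 20215 and 22765 FPKM in vehicle libraries, and all 5 were above 0. Lyz2 made up most of each sum, at between 16924 and 23901 FPKM. Itgam had 44.4, 113 and 88.4 FPKM in R-2-HG replicates 1, 2 and 3, against 102, 104 and 94.4 FPKM in vehicle libraries 1, 2 and 3. It was lowest in R-2-HG library 1, which was not the lowest R-2-HG library for Lyz2, Adgre1, Cd68 or Csf1r. The part of Itgam-bearing cells in the values of Ube2l3 was not tested. The 6 fibroblast and mesothelial markers differed between libraries of 1 group, with sums of 70.5, 11.2 and 3.81 FPKM in R-2-HG replicates 1, 2 and 3 and 81.7, 21.9 and 3.92 FPKM in vehicle libraries 1, 2 and 3. The 5 T and NK cell markers summed to between 0 and 1.10 FPKM in R-2-HG libraries, against sums between 0.379 and 3.09 FPKM in vehicle libraries. The 6 B cell markers summed to between 38.3 and 61.3 FPKM in R-2-HG libraries, against sums between 54.9 and 129 FPKM in vehicle libraries. The RNA came from the bulk of the cells, so fewer cells of a type and less RNA per cell cannot be told apart in any value below. The labels do not state whether the replicates of a group are different animals, different cultures or repeats of 1 preparation, and the p-values cover only the spread between these libraries, which may be technical.

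The stretch before the transcription start was read for the family, since these are the regulatory letters nearest to each gene. RefSeq windows of 250 bases before a start (GRCm38.p6) were found for 31 of the 40 members, 42 windows in all. They were rich in G and C, with a median of 68.0% against 52.4% over all 32851 windows of the genome, and held a median of 23 CpG pairs against 6. The GC box GGGCGG, searched on both strands as were all motifs, was in 64.3% of the member windows and in 32.7% of all windows. The CCAAT box CCAAT was in 23.8% of the member windows and 33.8% of all windows, and the TATA box TATAAA in 9.52% and 12.4%. The core of the interferon response element (GAAA, any pair of bases, GAAA) was in 2.38% of the member windows and 2.98% of all windows. Stretches are printed for Ube2l3, the gene with the uneven rise, for Ube2l6, the ISG15-carrying member, and for Ube2z, a steady member with GC boxes. Each reads 5′ to 3′ on the strand of its gene, and capitals mark the motifs found. Bases that overlap annotated exons of the same gene were left out, so Ube2l3 is shown from base -250 to base -142 before the start (minus strand, chr16:17201634-17201742), Ube2l6 from -250 to -1 (plus strand, chr2:84798578-84798827) and Ube2z from -250 to -25 (minus strand, chr11:96065389-96065614).
Ube2l3: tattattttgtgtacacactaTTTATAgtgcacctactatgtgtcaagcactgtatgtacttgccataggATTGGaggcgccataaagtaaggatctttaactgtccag
Ube2l6: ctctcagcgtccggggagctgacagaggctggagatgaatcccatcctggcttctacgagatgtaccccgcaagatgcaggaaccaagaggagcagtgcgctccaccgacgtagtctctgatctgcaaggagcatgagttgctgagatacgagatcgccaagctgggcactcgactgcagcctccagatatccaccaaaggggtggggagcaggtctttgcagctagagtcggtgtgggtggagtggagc
Ube2z: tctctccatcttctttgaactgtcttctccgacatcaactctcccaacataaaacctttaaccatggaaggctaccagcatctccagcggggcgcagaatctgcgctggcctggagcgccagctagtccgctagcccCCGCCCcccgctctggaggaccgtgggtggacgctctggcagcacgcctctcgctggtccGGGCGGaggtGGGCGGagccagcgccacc
The window of Ube2l3 held a TATA box and a CCAAT box, both read on the opposite strand, and no GC box, and 50.8% of its 250 bases were G or C. It precedes a RefSeq start. By GENCODE, Ube2l3 reaches to base 17202649 on its minus strand, so this window lies inside the annotated gene, with 141 bases in its exons. The window of Ube2l6 held none of the 4 motifs, and that of Ube2z held 3 GC boxes, 2 on its own strand and 1 on the other. These are matches of letters and say nothing of which factors bind there.

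Of the 40 members, 27 had a mean of at least 1 FPKM over the 6 libraries, the level from which genes were tested, and their median mean was 7.98 FPKM against 6.28 FPKM over the 9701 genes tested. The 4 most abundant, all with a mean above 20 FPKM, were Ube2b, Ube2z, Ube2j1 and Ube2d2a, and another 5 had a mean of at least 10 FPKM. Ube2s, with a mean of 1.48 FPKM, was the lowest member to pass the filter, and Ube2v2, with 0.946 FPKM, was the nearest to miss it. Of the 13 members that were not tested, 6 were at 0 in all 6 libraries (Ube2d2b, Ube2d4, Ube2dnl1, Ube2dnl2, Ube2u and Ube2uos) and 7 had low values. The 40 members summed to 277, 278 and 309 FPKM in R-2-HG replicates 1, 2 and 3 and to 283, 268 and 267 FPKM in vehicle libraries 1, 2 and 3. Without Ube2l3 the sums were 275, 256 and 282 FPKM in R-2-HG libraries, against 280, 266 and 264 FPKM in vehicle libraries, so the groups overlapped.

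**Figure D1:**
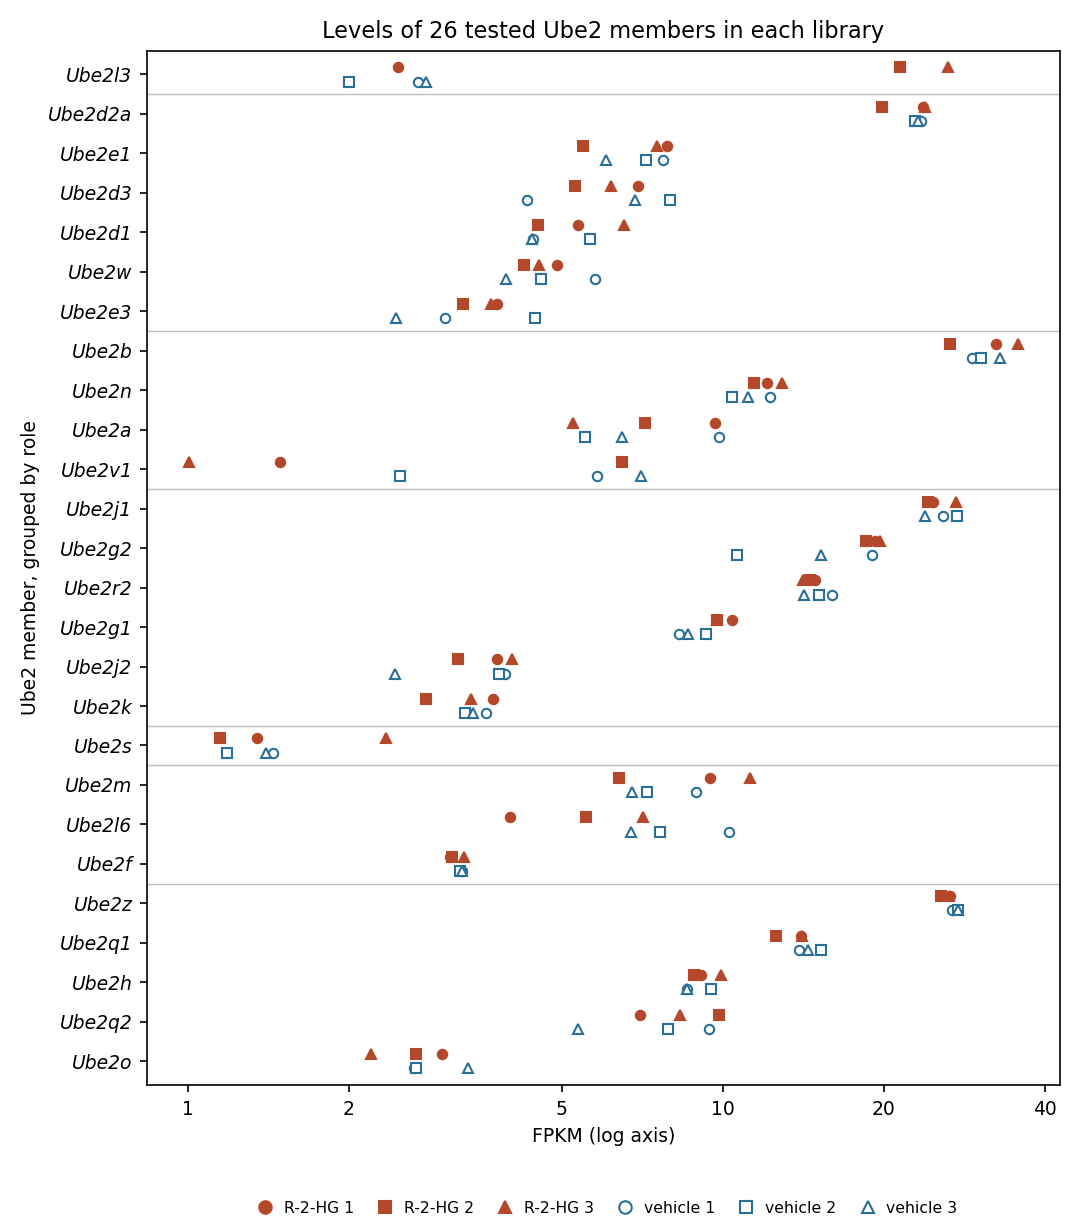
FPKM on a log axis of 26 tested members in each library, with members grouped by role and each library drawn as its own symbol, R-2-HG filled and above vehicle, which is open. Most members sit in a narrow band of values in all 6 libraries, while Ube2l3 splits R-2-HG libraries 2 and 3 from the other 4 and Ube2v1 splits both groups.

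Ube2l3, an E2 that works with ligases of the HECT and RBR kinds, parkin and the linear ubiquitin ligase among them, lies on the minus strand of chromosome 16 (GRCm38, chr16:17152013-17202649). Its level was 2.48, 21.4 and 26.4 FPKM in R-2-HG replicates 1, 2 and 3, against 2.69, 2.004 and 2.79 FPKM in vehicle libraries 1, 2 and 3. R-2-HG libraries 2 and 3 stood far above the rest, and R-2-HG library 1 lay among the vehicle libraries. The lower of R-2-HG libraries 2 and 3 was 7.68 times the highest vehicle library, while R-2-HG library 1 was 0.888 times it. The group means were 16.8 ± 12.6 FPKM in R-2-HG and 2.49 ± 0.427 FPKM in vehicle (SD, n = 3 each), and the SD within R-2-HG was close to the mean. Within the family, Ube2l3 ranked 25, 4 and 4 by level in R-2-HG libraries 1, 2 and 3, against 25, 26 and 24 in vehicle libraries 1, 2 and 3. It gave 0.893%, 7.71% and 8.55% of the family's summed FPKM in R-2-HG libraries, against 0.952%, 0.746% and 1.05% in vehicle libraries. Of the 6 libraries, the fibroblast and mesothelial marker sum was lowest in R-2-HG library 3 and next lowest in vehicle library 3, and its part in the values of Ube2l3 was not tested.

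The neighbours of Ube2l3 given here did not share its split. Ydjc, which encodes a carbohydrate deacetylase-like protein and overlaps exons of Ube2l3 on the opposite strand, was at 0.396, 0.360 and 0.00749 FPKM in R-2-HG libraries, against 0.215, 0.262 and 0.257 FPKM in vehicle libraries. Its values were low in all 6 and lowest in R-2-HG library 3. That lowest value is under the 0.0348 FPKM that 1 fragment of a 2 kb transcript was worth in that library. Transcripts of Ydjc and Ube2l3 match at 99.9% over 1673 bases. Whether the counting used strand is not given in the sources used here, and without strand, fragments of the shared exons cannot be told apart. Sdf2l1, an endoplasmic reticulum protein and the more abundant of the near neighbours, had 30.5, 27.4 and 34.7 FPKM in R-2-HG libraries against 35.3, 29.2 and 31.9 FPKM in vehicle libraries. Pi4ka, a lipid kinase, had 9.81, 12.3 and 9.32 FPKM in R-2-HG libraries against 9.58, 12.5 and 9.90 FPKM in vehicle libraries. Both overlapped between the groups. The processed pseudogene Gm10705 matches Ube2l3 transcripts at 99.7% over 310 bases, so part of the fragments of Ube2l3 may have more than 1 possible source. Ube2l3-ps1, dropped by name, was at 0 in all 6 libraries.

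**Figure D2:**
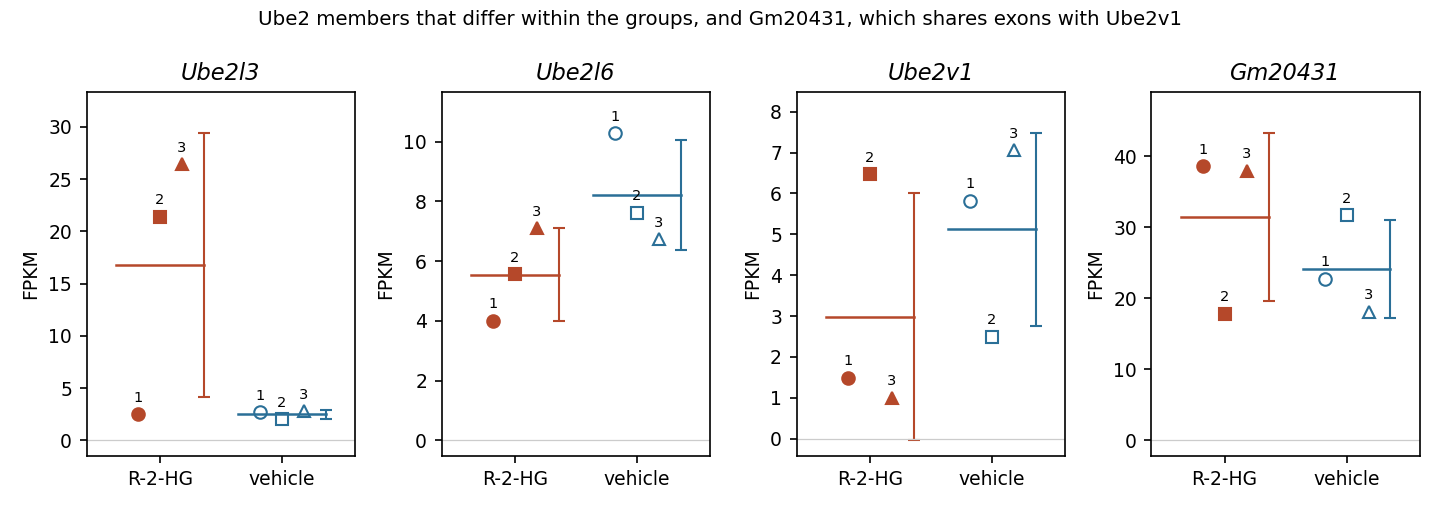
FPKM in each library, numbered by replicate, of Ube2l3, Ube2l6, Ube2v1 and Gm20431, with R-2-HG left of vehicle, a line at the group mean and a bar of 1 SD to either side (n = 3 each). Ube2l3 is high in R-2-HG libraries 2 and 3 only, and the 3 libraries in which Ube2v1 is high are those in which Gm20431 is low.

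No other member showed the uneven rise. It was defined from Ube2l3 as both R-2-HG libraries 2 and 3 at or above 2 times the highest vehicle library with R-2-HG library 1 not above it, and Ube2l3 alone met it among all 9701 genes tested (0.0103%). At 1.5 times, 11 genes met it (0.113%), and Ube2l3 was again the only member. Among the other 26 tested members, the ratio of the lower of R-2-HG libraries 2 and 3 to the highest vehicle library reached at most 1.05, in Ube2g1, where R-2-HG library 1 was higher still. None of the 26 had R-2-HG libraries 2 and 3 above every vehicle library with R-2-HG library 1 below the highest. Below the filter, Ube2e2, an E2 of the broadly acting kind, had that shape at a small size, with 0.436, 0.701 and 0.673 FPKM in R-2-HG replicates 1, 2 and 3 against 0.589, 0.468 and 0.585 FPKM in vehicle libraries 1, 2 and 3. The lower of its R-2-HG libraries 2 and 3 was 1.14 times the highest vehicle library. For Ube2cbp, also below the filter, that ratio was 4.62. Ube2cbp missed the rule because its R-2-HG library 1 was above the vehicle libraries too, at 1.93 times the highest.

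**Figure D3:**
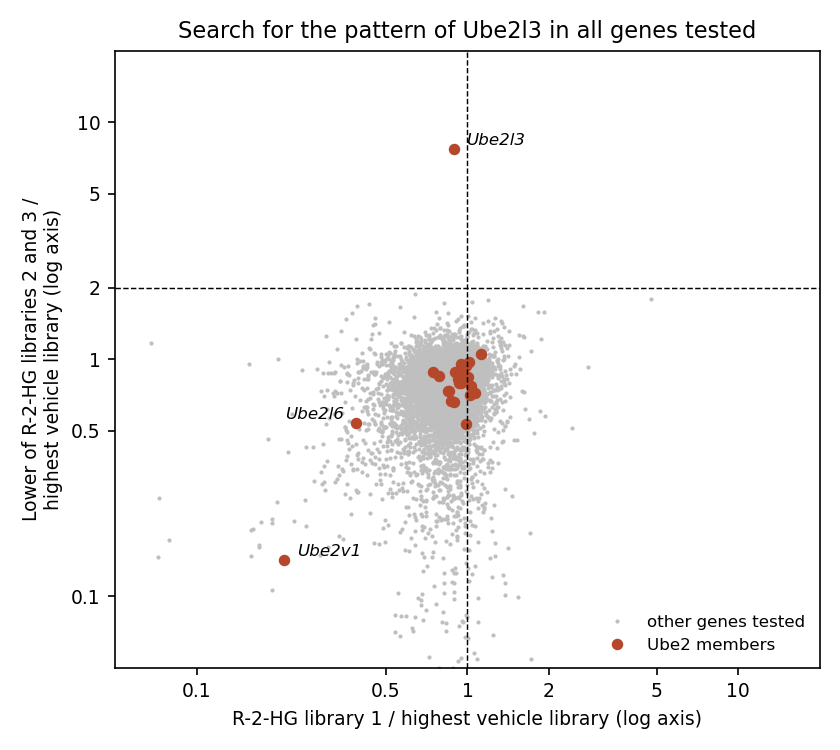
For each of 9625 genes tested, the lower of R-2-HG libraries 2 and 3 over the highest vehicle library (vertical, log axis) against R-2-HG library 1 over the highest vehicle library (horizontal, log axis), with Ube2 members in red and dashed lines at 2 and 1. Ube2l3, at 7.68 and 0.888, is alone in the upper left field, and the remaining 76 genes had a ratio of 0, no vehicle value or a place outside the axes.

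Between the groups as labelled, none of the other 26 tested members passed. On log2(FPKM + 1), limma called 0 of the 26 at a Benjamini-Hochberg adjusted p under 0.05, and 0 of all 9701 genes (0.0%), with a smallest adjusted p of 0.999981 in both. At an unadjusted p under 0.05 limma had 1 of the 26, Ube2l6, against 140 of all genes (1.44%). In the fit that blocks on replicate number, limma again had 1 of the 26, but this was Ube2g2, with an unadjusted p of 0.046, and 329 of all genes (3.39%). Changes are R-2-HG minus vehicle, and 12 of the 26 were above 0 and 14 below, with a median of -0.01, while the median over all genes was -0.004 and 48.4% were above 0. The 95% interval lay within 1 of 0 for 25 of the 26 (94.6% of all genes) and within 0.5 of 0 for 16 (60.2% of all genes), so changes of 2-fold in FPKM + 1 were outside the interval for all but Ube2v1. An exact permutation test of 3 libraries against 3 cannot go below p = 0.1, and for single members only the limma values are given.

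**Figure D4:**
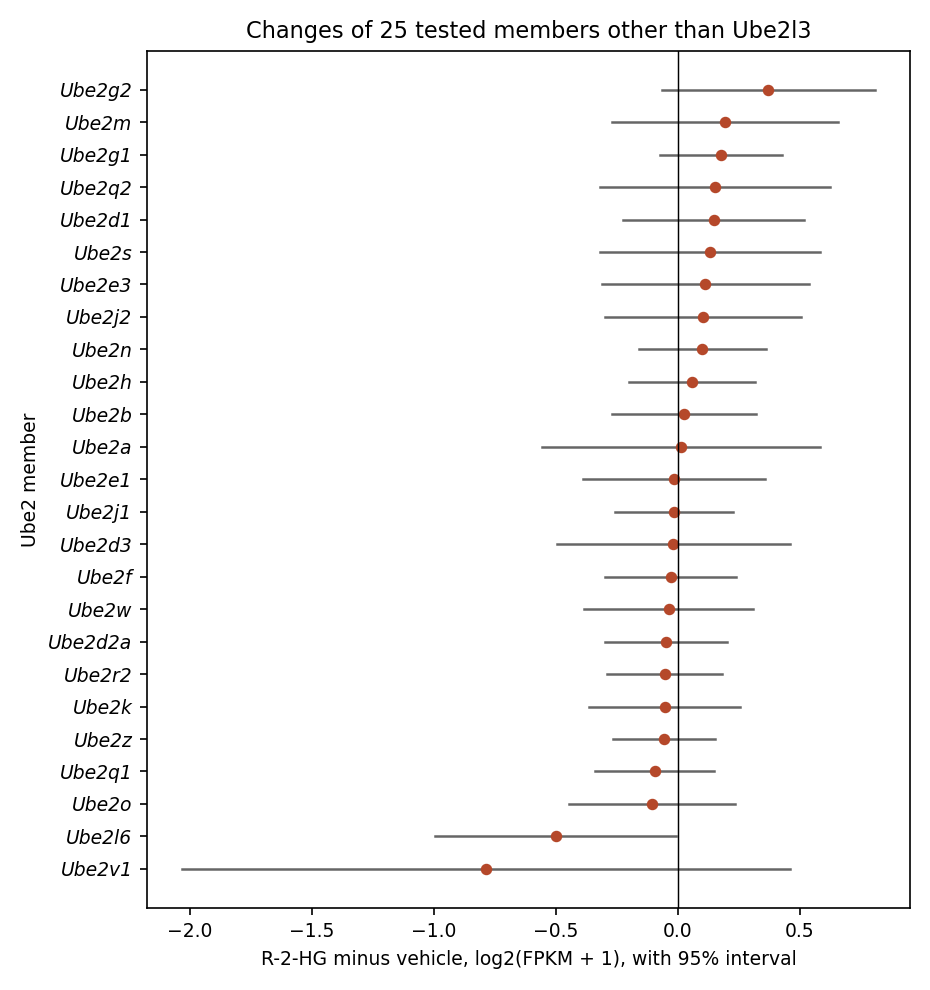
Change of 25 tested members other than Ube2l3, R-2-HG minus vehicle on log2(FPKM + 1), with its 95% interval from limma without the replicate block. With the block, the unadjusted p from limma was 0.0778 for Ube2l6 and 0.046 for Ube2g2. All drawn but Ube2l6 have intervals that include 0, the interval of Ube2l6 ends at -0.01, and that of Ube2v1 is the widest.

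The groups did not overlap in 2 of the 26, 1 higher in R-2-HG (2.03% of all genes tested) and 1 lower (2.66%). Ube2g1, which extends chains that lead to the proteasome, had 10.4, 9.76 and 9.76 FPKM in R-2-HG replicates 1, 2 and 3, against 8.27, 9.31 and 8.60 FPKM in vehicle libraries 1, 2 and 3. All 3 R-2-HG libraries lay just above the vehicle libraries, and the change was 0.18 (SE 0.11, 95% interval -0.07 to 0.43). Ube2z, which takes ubiquitin from the E1 enzyme Uba6, had 26.6, 25.6 and 26.5 FPKM in R-2-HG libraries, against 26.9, 27.6 and 27.6 FPKM in vehicle libraries. All 3 R-2-HG libraries lay just below the vehicle libraries, and the change was -0.06 (SE 0.09, 95% interval -0.27 to 0.15). Taken pair by pair over the replicate numbers, Ube2g1 and Ube2g2 were higher in R-2-HG in all 3 pairs (11.7% of all genes) and Ube2z and Ube2r2 lower in all 3 (11.8% of all genes).

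The broadly acting E2 enzymes, which load many ligases, are the Ube2d and Ube2e groups and Ube2w, which can place ubiquitin on the first residue of a protein. Ube2d2a had 23.6, 19.9 and 23.9 FPKM in R-2-HG libraries against 23.5, 22.9 and 23.2 FPKM in vehicle libraries, and the groups overlapped. The processed pseudogene Gm9762, which has no values here, matches Ube2d2a at 100% over 423 bases, so the level of Ube2d2a is uncertain. Ube2d1 had 5.37, 4.52 and 6.53 FPKM in R-2-HG libraries against 4.43, 5.66 and 4.39 FPKM in vehicle libraries, a change of 0.15 (SE 0.16). Its groups overlapped too. Ube2d3 averaged 6.14 ± 0.833 FPKM in R-2-HG and 6.37 ± 1.87 FPKM in vehicle, Ube2e1 6.96 ± 1.30 FPKM in R-2-HG and 6.99 ± 0.867 FPKM in vehicle (SD, n = 3 each). Ube2e3 averaged 3.58 ± 0.279 FPKM in R-2-HG and 3.31 ± 1.03 FPKM in vehicle, and Ube2w 4.57 ± 0.333 FPKM in R-2-HG and 4.76 ± 0.929 FPKM in vehicle. None of these 6 members passed the test. Ube2d-ps, dropped by name, had 1.996, 1.72 and 3.44 FPKM in R-2-HG libraries against 1.06, 1.09 and 0.570 FPKM in vehicle libraries. All 3 R-2-HG libraries of that pseudogene lay above the vehicle libraries, which held for 2.03% of all genes tested. It overlaps exons of Urgcp on the opposite strand. Urgcp had 2.49, 2.19 and 2.77 FPKM in R-2-HG libraries against 2.79, 2.32 and 2.19 FPKM in vehicle libraries.

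Several members make the chains used in signalling and DNA repair. Ube2b, which with its relative Ube2a marks histones and the DNA clamp PCNA, was the most abundant member, with 32.4, 26.7 and 35.7 FPKM in R-2-HG libraries against 29.2, 30.3 and 33.0 FPKM in vehicle libraries. The vehicle values lay inside the range of the R-2-HG values. Ube2a averaged 7.36 ± 2.22 FPKM in R-2-HG and 7.29 ± 2.26 FPKM in vehicle. Ube2n, which with Ube2v1 builds the chains that activate the kinase Map3k7 below Toll-like receptors, had 12.1, 11.5 and 12.9 FPKM in R-2-HG libraries against 12.3, 10.4 and 11.1 FPKM in vehicle libraries. The groups overlapped, with a change of 0.10 (SE 0.11). The pseudogene Ube2n-ps1 matches Ube2n at 100% over 459 bases and had 51.3, 40.6 and 37.0 FPKM in R-2-HG libraries against 50.6, 51.6 and 45.4 FPKM in vehicle libraries, so the authors' counting could have split fragments between them and the level of Ube2n is uncertain.

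Ube2v1, the E2-like partner of Ube2n that lacks the active cysteine, was the least even tested member besides Ube2l3, and its pattern was another one. It had 1.49, 6.47 and 1.004 FPKM in R-2-HG replicates 1, 2 and 3, against 5.81, 2.49 and 7.05 FPKM in vehicle libraries 1, 2 and 3. R-2-HG libraries 1 and 3 and vehicle library 2 were low, and the other 3 high. The change was -0.79 with an SE of 0.53 (95% interval -2.03 to 0.46), and limma gave an unadjusted p of 0.179. With 1 library left out the change ran from -1.37 (without R-2-HG library 2) to -0.42 (without R-2-HG library 3). On the same strand of chromosome 2, the protein-coding gene Gm20431 overlaps Ube2v1 and shares 1674 bases with it at 100% identity. Gm20431 had 38.6, 17.8 and 38.0 FPKM in R-2-HG libraries against 22.8, 31.7 and 18.1 FPKM in vehicle libraries, and its 3 highest libraries were the 3 lowest of Ube2v1. How the fragments of the shared exons were divided was not tested, and the level of Ube2v1 is uncertain. The transcribed pseudogene Gm8325, with 97.6% identity over 453 bases, had 43.4, 54.8 and 36.4 FPKM in R-2-HG libraries against 45.3, 54.8 and 45.1 FPKM in vehicle libraries. Across the family, the highest library was at least 5 times the lowest in 2 of the 27 tested members, Ube2l3 and Ube2v1 (3.14% of all genes), and at least 2 times in 4 (20.3% of all genes).

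Below the filter, Ube2v2, the other E2-like partner of Ube2n, had 0.970, 0.626 and 0.617 FPKM in R-2-HG libraries against 1.04, 1.02 and 1.39 FPKM in vehicle libraries. Its R-2-HG libraries all lay below the vehicle libraries, and at this level it was not tested. The processed pseudogene Gm6565, which has no values here, matches Ube2v2 at 100% over 438 bases. Ube2t, the E2 of the Fanconi anaemia repair pathway, stayed at or under 0.452 FPKM in every library.

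Members that serve protein degradation and the endoplasmic reticulum had the highest summed level of the role groups in the values as deposited, with summed FPKM of 76.1 ± 2.69 in R-2-HG and 71.4 ± 4.66 in vehicle over 6 members. The levels of Ube2n and Ube2v1 in another role group are uncertain, as given above, so this order is uncertain too. Ube2g2, which acts on proteins withdrawn from the endoplasmic reticulum, had 19.3, 18.5 and 19.7 FPKM in R-2-HG libraries against 19.0, 10.6 and 15.3 FPKM in vehicle libraries. The R-2-HG libraries were close together and vehicle library 2 was low, vehicle library 1 lay between R-2-HG libraries, and the change was 0.37 (SE 0.19, 95% interval -0.07 to 0.81). It was the highest of the 26 members in this fit and not without vehicle library 2, where it was 0.16 and that of Ube2d1 was 0.25. Ube2g2 shares exons on the same strand with the protein-coding gene Gm49325, which has no values here. Ube2j1, anchored in the membrane of the endoplasmic reticulum, had 24.8, 24.2 and 27.3 FPKM in R-2-HG libraries against 25.8, 27.5 and 23.9 FPKM in vehicle libraries, with overlapping groups. Its relative Ube2j2 averaged 3.68 ± 0.431 FPKM in R-2-HG and 3.39 ± 0.823 FPKM in vehicle. Ube2r2, a partner of cullin ligases, averaged 14.5 ± 0.384 FPKM in R-2-HG and 15.1 ± 0.909 FPKM in vehicle, and Ube2k, which builds degradation chains, 3.30 ± 0.471 FPKM in R-2-HG and 3.44 ± 0.153 FPKM in vehicle. None passed the test.

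The 2 members that serve the anaphase-promoting complex, the ligase of dividing cells, were low. Ube2s, which extends its chains, averaged 1.61 ± 0.642 FPKM in R-2-HG and 1.34 ± 0.140 FPKM in vehicle, and R-2-HG library 3 was its highest at 2.35 FPKM. Ube2c, which starts them, had 1.10, 0.447 and 0 FPKM in R-2-HG replicates 1, 2 and 3, against 1.14, 0.743 and 0.282 FPKM in vehicle libraries 1, 2 and 3. It was highest in the 2 libraries numbered 1 and lowest in those numbered 3. The 5 markers of dividing cells had the same order, with sums of 8.22, 5.58 and 2.75 FPKM in R-2-HG libraries, against 8.28, 6.15 and 1.82 FPKM in vehicle libraries. Their part in the values of Ube2c was not tested.

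The E2 enzymes of the other modifiers included the member with the lowest p of the 26 in the fit without a block. Ube2l6, the E2 for ISG15 and the nearest relative of Ube2l3 by name, had 4.003, 5.55 and 7.10 FPKM in R-2-HG replicates 1, 2 and 3, against 10.3, 7.63 and 6.73 FPKM in vehicle libraries 1, 2 and 3. R-2-HG libraries 1 and 2 lay below every vehicle library, and R-2-HG library 3 lay above vehicle library 3. The change was -0.50 (SE 0.21, 95% interval -0.99 to -0.01), with an unadjusted p of 0.0471 from limma and a Benjamini-Hochberg adjusted p of 0.999981, so Ube2l6 did not pass. In the fit that blocks on replicate number the unadjusted p was 0.0778, and it was also above 0.05 without R-2-HG library 1 or 2 and without vehicle library 1 or 2, with changes of -0.32, -0.52, -0.35 and -0.54. Isg15, the modifier itself, had 3.80, 2.03 and 4.70 FPKM in R-2-HG libraries against 5.02, 3.93 and 2.95 FPKM in vehicle libraries. Its groups overlapped widely, and so did those of Uba7, the E1 for ISG15, with 1.38, 2.10 and 1.75 FPKM in R-2-HG libraries against 1.55, 2.002 and 1.76 FPKM in vehicle libraries.

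Ube2m, the main E2 for NEDD8, had 9.49, 6.40 and 11.3 FPKM in R-2-HG libraries against 8.92, 7.22 and 6.78 FPKM in vehicle libraries, a change of 0.20 (SE 0.20). The groups overlapped. Ube2f, the other E2 for NEDD8, was the steadiest of the 27, with its highest library only 1.07 times its lowest, at 3.17 ± 0.111 FPKM in R-2-HG and 3.25 ± 0.0209 FPKM in vehicle.

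Among the large and remaining members, Ube2o, which joins E2 and E3 activity in 1 protein, had 2.98, 2.68 and 2.20 FPKM in R-2-HG libraries against 2.65, 2.68 and 3.34 FPKM in vehicle libraries, a change of -0.10 (SE 0.15). Ube2q1 had 14.03, 12.6 and 14.1 FPKM in R-2-HG libraries against 13.9, 15.2 and 14.5 FPKM in vehicle libraries, a change of -0.09 (SE 0.11). Both overlapped between the groups. Ube2q2 had 7.02, 9.83 and 8.32 FPKM in R-2-HG libraries against 9.44, 7.92 and 5.36 FPKM in vehicle libraries, a change of 0.15 (SE 0.20), again with overlap. Ube2h, a partner of the CTLH ligase, averaged 9.29 ± 0.562 FPKM in R-2-HG and 8.89 ± 0.543 FPKM in vehicle. Ube2cbp, below the filter, had 0.191, 0.456 and 0.532 FPKM in R-2-HG libraries against 0.0987, 0.0335 and 0.0938 FPKM in vehicle libraries. All 3 R-2-HG libraries lay above the vehicle libraries, R-2-HG library 1 too, at levels under 1 FPKM. Ube2ql1 was above 0 in 1 R-2-HG library and 2 vehicle libraries, and Ube2nl in 1 R-2-HG library alone.

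The genes that act before and after the E2 enzymes did not pass the test either. In each of 10 lists limma called 0 genes at an adjusted p under 0.05, and no listed gene had an unadjusted p under 0.05. The 9 E1 enzymes tested had a median change of -0.02, with 3 above 0 and 6 below, and Atg7, the E1 of autophagy, averaged 10.8 ± 1.33 FPKM in R-2-HG and 11.8 ± 1.19 FPKM in vehicle. The 12 tested RBR ligases and members of the linear ubiquitin complex, the partners of Ube2l3, had a median of 0.04, with 8 above 0 and 4 below. Of these, Rnf19b had 14.9, 8.74 and 10.8 FPKM in R-2-HG libraries against 18.4, 15.9 and 13.2 FPKM in vehicle libraries, a change of -0.45 (SE 0.20), and Rnf14 averaged 16.9 ± 2.32 FPKM in R-2-HG and 19.9 ± 1.62 FPKM in vehicle. Of the 8 genes with the E2 fold but other names, Atg10, the E2-like enzyme of autophagy, averaged 4.57 ± 0.820 FPKM in R-2-HG and 3.60 ± 0.360 FPKM in vehicle. The list medians of the 7 signalling partners of Ube2n, the 16 genes of the anaphase-promoting complex, the 10 tested genes of degradation from the endoplasmic reticulum, the 5 SUMO ligases, the 6 tested genes of NEDD8 ligation, the 4 genes of ISG15 ligation and removal and the 9 tested modifiers lay between -0.09 and 0.07.

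The genes whose values over the 6 libraries were most like those of Ube2l3 moved far less. By Pearson r on log2(FPKM + 1) over 6 libraries, given as a description, the 5 nearest of all genes tested were Sart1 (r of 0.988), Uxs1, Junb, Taf10 and Mum1. Sart1, a splicing protein, had 14.9, 17.9 and 18.05 FPKM in R-2-HG replicates 1, 2 and 3 against 14.4, 14.4 and 15.1 FPKM in vehicle libraries 1, 2 and 3. Its mean over R-2-HG libraries 2 and 3 was 1.22 times its mean over the other 4 libraries, and among the 5 the highest such ratio was 1.45, in Uxs1. In the opposite direction the first was Gemin4, of the complex that assembles spliceosomal particles (r of -0.983), with 2.74, 0 and 0 FPKM in R-2-HG libraries against 2.52, 2.05 and 1.96 FPKM in vehicle libraries. Gemin4 was listed at 0 in the same 2 libraries in which Ube2l3 was high. Arf3, Tmem135, Coa6 and Ap3m1-ps followed. The search ran over 9701 genes and 6 libraries, and the libraries share their groups and numbers. Within the family, r with Ube2l3 ran from -0.73 (Ube2z) to 0.50 (Ube2s).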

How the data were processed

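The authors deposited 1 table of FPKM, with 1 column for each of the 6 libraries, used here as deposited; per the labels' protocols the libraries were made from total RNA by Illumina protocols. The submitters' processing notes name Bowtie 0.12.2, Cuffdiff, mm8 and mm10, without role or order. For the annotation and the strand setting the sources used here give nothing. Values in FPKM keep no counts, so tests for counts were not used. How multi-mapped and shared fragments were divided bears on Ube2v1, Ube2n and Ube2l3, and on other members with close copies or shared exons. Among these are Ube2d2a, Ube2v2 and Ube2g2, as given above. Ube2j2 matches the processed pseudogene Gm5801 at 99.2% over 780 bases, and Ube2q2 matches Gm4895 at 99.0% over 1137 bases. These 2 pseudogenes have no values here.

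Locations, biotypes and overlaps come from GENCODE release M21 (GRCm38), copies from BLAST 2.17.0 of transcripts (at least 85% identity over 200 bases), and windows before the start from RefSeq. The test was limma 3.58.1 (R 4.3.3; lmFit and eBayes with trend and robust), run two-sided on log2(FPKM + 1) for the 9701 genes whose mean over the 6 libraries reached 1 FPKM, with Benjamini-Hochberg adjustment over all of them and a threshold of 0.05. On this scale changes of low genes are understated. The fit was also run on simulated data in which libraries of the same number did not vary together. That run therefore says nothing of the pairing described below. Depth came from FPKM steps of single-transcript genes, where between 96.2% and 97.0% of low values were whole fragments to within 0.1. Tables used Python 3.11.15 and pandas 2.3.3.

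The members, roles and gene lists were chosen with earlier results of these data known. By the naming rule, members with a mean of at least 1 FPKM are named, except 1 that enters the counts but is not reported here. Values in every library are given for Ube2l3, the 5 most abundant members, those whose groups do not overlap, those with a library 2-fold from the median of the other 5, the 5 changes at either end, and Ube2l6, Ube2n, Ube2m and Ube2c. Of each pathway list up to 2 genes with the smallest p could be named. Ube2e2, Ube2s and the dropped pseudogenes were added after their values were seen.

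Replicate numbers are shared by the groups, and the labels do not say what they mark. With the group mean taken off, libraries 1, 2 and 3 of R-2-HG correlated with those of vehicle at 0.538, 0.375 and 0.361 across genes. All were above 0.1, so the numbers were taken to pair the samples, and this pairing rests on the data alone. The main fit had no block, so its SE, intervals and p-values leave the pairing out. Alternatives were another pseudocount, other filters, 2 rescalings, plain eBayes, the replicate block and leaving libraries out.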

Additional observations from a re-analysis of the deposited data

How the results depend on the processing

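Of the tested members other than Ube2l3, limma called 0 at a Benjamini-Hochberg adjusted p under 0.05 in all 16 alternatives, with smallest adjusted p-values between 0.742 and 1. These members were 33 with no filter, 18 with the filter at 5 FPKM and 26 otherwise. At an unadjusted p under 0.05 the count was between 0 and 2 members, and 0 with plain eBayes, without R-2-HG replicate 1 and without vehicle replicate 2. With no filter the 1 member counted was Ube2cbp, at an unadjusted p of 0.0186 from limma. Over the whole table, leaving out 1 library gave between 0 and 1 genes called. Without R-2-HG replicate 3 this was C5ar1. With the replicate block the count stayed at 0, which changed no call. The replicate block gave 4 genes without replicate 3 of both groups (Gatad2b, Igkc, C5ar1 and Grb2). Ube2l3 is left out of these counts, since the family was chosen on its values. Wherever R-2-HG replicate 1 was left out, no other gene was called. The cause of the uneven rise of Ube2l3 was not tested. The uneven rise was met by 1 member, Ube2l3, in every alternative for fold, filter, scaling and vehicle library left out. Of 174 alternative changes of 11 members, 169 kept their direction and 5 did not. With the replicate block and without replicate 3 of both groups, these were -0.035 for Ube2m, -0.0499 for Ube2q2, -0.021 for Ube2d1 and 0.064 for Ube2o. With 1 library left out, the change of Ube2q2 ran from -0.0498 (without vehicle replicate 3) to 0.31. Over all alternatives the change of Ube2l6 lay between -0.79 and -0.16, both from the replicate block with the 2 libraries of a number left out, with adjusted p-values between 0.799 and 1. Depth limits values near the worth of 1 fragment, about 0.03 FPKM for a 2 kb transcript and more for a shorter one. This bears on Ydjc, Ube2cbp, Ube2ql1 and Ube2nl, and the annotated transcript of Ube2nl has only 456 bases.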
